A study of Chrysanthemum x morifolium with 4 samples.

Results

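Described here are 119 chrysanthemum leaf unigenes that were high in both libraries from unacclimated plants and low in both libraries from cold-acclimated plants, frozen or not. A unigene is a transcript pieced together from the reads. The set was chosen on the deposited FPKM values (a count scaled by the length of the unigene and by the library's total): the smaller of the control and the unacclimated frozen value had to be at least 10 FPKM, and at least 4 times the larger of both acclimated values. The rule was met by 119 of 93837 unigenes (0.127%), and by 1.15% of the 10373 unigenes of at least 10 FPKM in both unacclimated libraries. Because the rule used the FPKM of all 4 libraries, the gap between unacclimated and acclimated leaves is a description of the choice and is not tested.

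The plants were seedlings of the cultivar Jinba of Chrysanthemum x morifolium, raised on MS medium from tissue culture for 20 days under a 16 h photoperiod, at 25 °C by day and 22 °C by night, and kept in pots for 3 days before treatment. There was 1 library per treatment: control at normal growth conditions, 4 °C for 24 h (acclimated), 4 °C for 24 h and then -4 °C for 4 h (acclimated-frozen), and -4 °C for 4 h with no acclimation (frozen-only). Values given in a row below follow the order control, acclimated, acclimated-frozen, frozen-only. The leaves of 3 replicates were mixed for each library, which leaves variation from plant to plant unmeasured, and intervals below cover counting error only. Acclimated plants also differed from the others by 24 h more of treatment, and temperature and elapsed time cannot be told apart.

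Cold acclimation is the gain of freezing tolerance that many temperate plants make during a spell at low temperature above freezing. In Arabidopsis the CBF transcription factors act early in it and switch on cold-responsive genes for protective proteins and sugars. Other transcripts, among them many for growth and photosynthesis, go down over the same time. The rule picks transcripts that were low after acclimation and low again after a later freeze. The table lists unigenes by assembly identifier only, so no member is given a gene name or a role, and leaf marker genes were not looked up here.

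The libraries held 14024558 to 15781435 counts. The members held 0.988% of the counts of the control library (exact 95% binomial interval 0.983 to 0.993%) and 0.727% of the frozen-only library (0.723 to 0.732%). They held 0.103% of the acclimated library (0.102 to 0.105%) and 0.101% of the acclimated-frozen library (0.0993 to 0.103%). The share of the control was thus 9.55 times that of the acclimated and 9.78 times that of the acclimated-frozen library, and the share of the frozen-only library was 7.03 and 7.20 times theirs. These gaps follow from the rule. The control share was 1.36 times the frozen-only share, and the rule limits this ratio too, since it drops unigenes with a low frozen-only value. In such mixed leaf material fewer cells of a type and less RNA per cell cannot be told apart. The pair of most abundant members, described below, held 23.0% of the members' counts in the control and 14.8% in the frozen-only library, and without them the shares of those libraries were 0.760% and 0.620%.

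The median member stood at 28.7 FPKM in the control (quartiles 16.6 and 61.0 FPKM, range 10.2 to 1523 FPKM). In the frozen-only library the median was 26.1 FPKM (quartiles 14.5 and 51.8 FPKM, range 10.1 to 820.7 FPKM). In the acclimated library it was 3.53 FPKM (quartiles 2.12 and 7.49 FPKM, highest 178.4 FPKM), and in the acclimated-frozen library it was 3.48 FPKM (quartiles 2.10 and 7.67 FPKM, range 0.715 to 136.4 FPKM). By FPKM among all unigenes, the median rank of the members was 3964 in the control and 5287 in the frozen-only library, against 19385 and 19293 in the acclimated and the acclimated-frozen library. The control was the highest library for 78 members and the frozen-only library for 41. The lowest library was the acclimated one for 57 members and the acclimated-frozen one for 62, so neither of the low libraries was the lower one throughout.

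**Figure D1:**
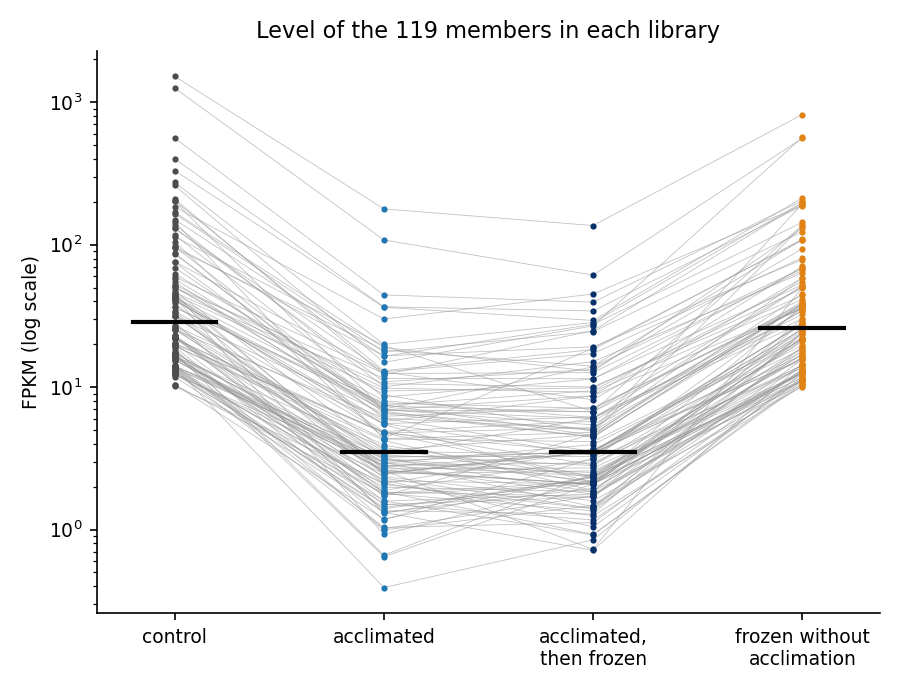
FPKM (log axis) of each of the 119 members in the 4 libraries. Points are members, grey lines join the same member across libraries and black bars are medians, which stand at 28.7, 3.53, 3.48 and 26.1 FPKM from left to right; the member with 0 counts after acclimation has no point there.

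By level and by fold the largest class of members was the one nearest the limit of the rule, with a tail of deeper gaps. The smaller unacclimated value lay at 10 to 20 FPKM for 52 members, at 20 to 50 FPKM for 37, at 50 to 100 FPKM for 14 and at 100 FPKM or more for 16. The ratio of the smaller unacclimated to the larger acclimated FPKM, called the fold below, had a median of 5.18 (quartiles 4.58 and 6.80, range 4.04 to 28.0). It was 4 to 5 for 51 members, 5 to 6 for 28, 6 to 8 for 22, 8 to 16 for 15 and 16 or more for 3. Median folds in the 4 abundance classes were 5.28, 4.89, 5.51 and 5.72, from the scarcest to the most abundant, so the fold did not follow abundance in 1 direction.

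Counting intervals restate the gap that the rule asked for. For each of the 4 ratios of an unacclimated to an acclimated library, scaled by total counts as FPKM is, the exact 95% interval lay wholly beyond 2-fold in all 119 members, a limit met by 0.894% of all unigenes and by 4.32% of those of at least 10 FPKM in both unacclimated libraries. The lowest bound of any member's 4 ratios was 2.47-fold. Since the rule used these ratios, nothing further is read from that count.

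Where the limits of the rule fell was a matter of small differences. The member just inside the level limit, c98179.graph_c0, had 16.2, 2.36, 1.60 and 10.1 FPKM, and the next, c101629.graph_c0, had 10.2, 2.12, 1.25 and 10.2 FPKM. Just outside stood c111715.graph_c1 (9.78, 2.26, 0.772 and 9.62 FPKM) and c93845.graph_c0 (11.5, 1.52, 1.44 and 9.37 FPKM). At the fold limit c113664.graph_c0 was just inside at 4.042 and c84099.graph_c0 at 4.043, while c115902.graph_c1 at 3.999 and c112884.graph_c0 at 3.98 were just outside. The size of the set also depended on scaling. It held 89 unigenes when FPKM was rescaled by TMM, which scales libraries on the bulk of unigenes, and 69 when it was rescaled by median-of-ratios factors, and all of these were among the 119.

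**Figure D2:**
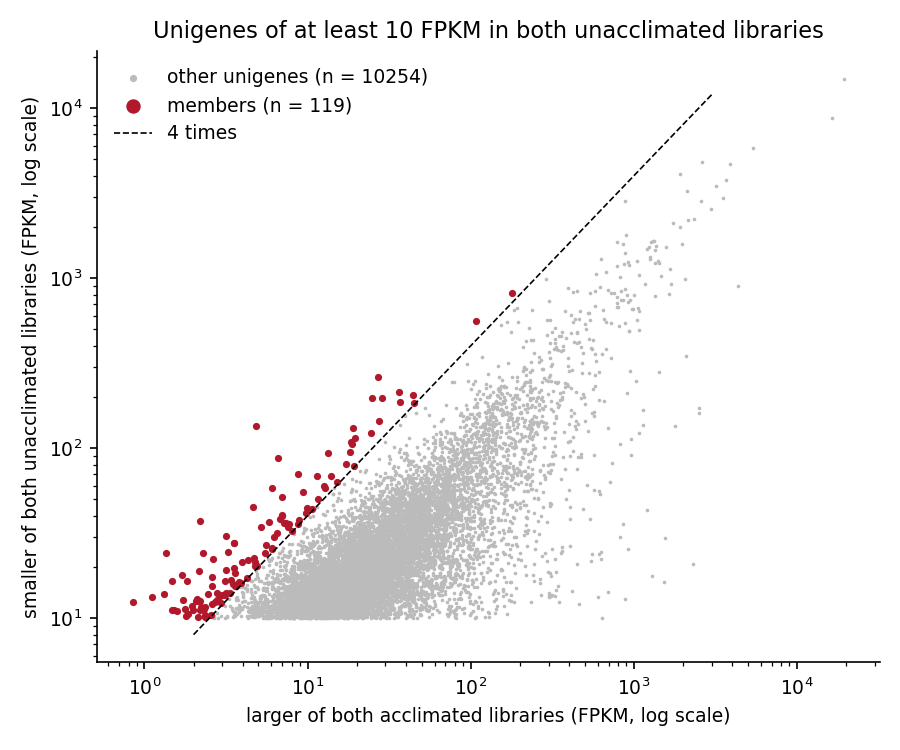
Each point is 1 of the 10373 unigenes of at least 10 FPKM in both unacclimated libraries, placed by the larger acclimated FPKM (horizontal, log axis) and the smaller unacclimated FPKM (vertical, log axis). Red points are the 119 members above the dashed line at 4 times, grey points are the other 10254; the members form the upper left edge of the cloud and are not separated from it.

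The members came out of a larger group that was low after acclimation. Of 11233 unigenes of at least 10 FPKM in the control, 495 stood at least 4 times above the acclimated library, and 359 of these stood at least 4 times above the acclimated-frozen library too. Of the 359, 114 were under 10 FPKM in the frozen-only library and 126 others were not 4 times above the larger acclimated value. This left the 119 members, 33.1% of the 359. Among the members, 112 had at least 0.5 of their control FPKM in the frozen-only library, and 41 of these were above the control. A further 108 unigenes met the rule against the acclimated library but not against the acclimated-frozen one. The mirror rule, at least 10 FPKM and 4 times higher in both acclimated libraries, was met by 214 unigenes.

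The most abundant members were headed by c98552.graph_c1, at 1523, 178.4, 136.4 and 820.7 FPKM. Its control level rested on 11000 counts and its acclimated level on 1240. Unigene c98552.graph_c0, which carries the same component number in its identifier, had 331.6, 36.4, 29.4 and 213.1 FPKM. Both had the same order of levels, with the control highest and the acclimated-frozen library lowest. This was the 1 component number that more than 1 member shared.

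The second in abundance, c90493.graph_c0, had 1261, 108.1, 61.2 and 559.6 FPKM. Unigene c100322.graph_c0 had 561.7, 44.4, 39.5 and 204.1 FPKM, and c42777.graph_c0 had 400.9, 36.7, 34.3 and 187.8 FPKM. In each of these members the frozen-only library lay under 0.5 of the control and still more than 4 times above both acclimated libraries. The pattern of c87785.graph_c0 was the other way round on the high side: it had 260.7, 14.9, 26.9 and 569.2 FPKM. Its level was higher in the frozen library of each state, with a log2 ratio of 0.96 without acclimation and 0.92 after it.

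The deepest gap was that of c96125.graph_c0. It stood at 145.3, 4.34, 4.82 and 135.1 FPKM, a fold of 28.0. Its levels with and without freezing lay close together in each state, with log2 ratios of -0.27 without acclimation and 0.22 after it. The fold of c89692.graph_c0 was 17.7, with 28.7, 1.36, 1.28 and 24.0 FPKM. Unigene c95368.graph_c0 reached 17.0, with 43.1, 0.926, 2.18 and 37.1 FPKM.

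Of the other members with large folds, c89576.graph_c0 (14.8-fold) had 13.8 and 12.5 FPKM in the unacclimated libraries against 0.392 and 0.848 FPKM in the acclimated ones, the last values resting on 4 and 8 counts. Unigene c95234.graph_c0 (11.9-fold) had 14.4 and 13.3 FPKM against 1.04 and 1.12 FPKM, from 14 counts in each acclimated library. Unigene c58923.graph_c0 (13.2-fold) differed from these in standing higher in the frozen-only library, at 193.7 FPKM, than in the control, at 87.4 FPKM, with 6.63 and 4.99 FPKM in the acclimated libraries. Members under 1 FPKM numbered 6 in the acclimated and 5 in the acclimated-frozen library, and 1, c97252.graph_c0, had 0 counts in the acclimated library, which allows up to 3 counts.

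**Figure D3:**
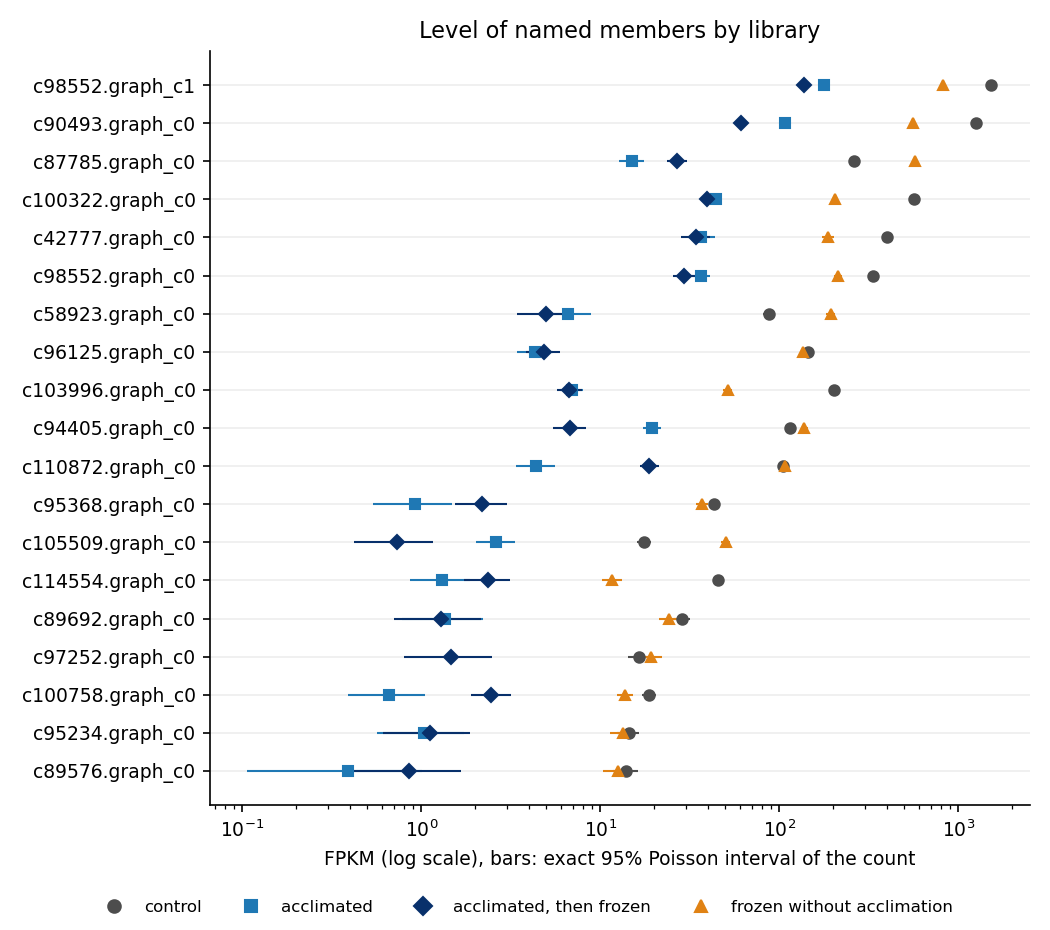
FPKM (log axis) of the 19 members named for abundance, for the size of the gap or for their freezing response, by library. Bars are exact 95% Poisson intervals of the count; in every row both unacclimated libraries (circle, triangle) lie to the right of both acclimated ones (square, diamond), and the member with 0 counts has no square.

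Members near their control level in the frozen-only library are in part a product of the rule. Of the 359 unigenes low in both acclimated libraries it dropped 114 and 126 for a low frozen-only value, and 230 of the 359 had at least 0.5 of their control FPKM there, against 112 of the 119 members. Frozen-only against control, with libraries scaled by TMM, the median log2 ratio of the members was -0.39 (quartiles -0.64 and -0.09), and 98 of 119 lay below 0. The median was 0.06 over all 81889 unigenes compared (0.02 over the 52228 with over 3 counts in a library and zeros set to 3 counts). It was -0.06 over the other 10254 unigenes of at least 10 FPKM in both unacclimated libraries, of which 5859 lay below 0. Total-count scaling shifts all of these ratios by 0.16, which puts the members' median at -0.22. By FPKM, which is scaled by total counts, the control was the higher of both libraries in 78 members, so the sign count depends on scaling. Since the rule used both values and cut off low ratios, these medians and the counts that follow describe the members and show no more.

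Members counted as called when their whole 95% interval was beyond 2-fold. By this limit 8 members (6.72%) were called lower, where 1.27% of all unigenes compared and 2.25% of those of at least 10 FPKM in both unacclimated libraries were. Called higher was 1 member (0.840%), where 3.03% of all unigenes and 2.5% of the abundant ones were. Scaling by total counts gave 5 lower and 3 higher calls, for which the shares of all unigenes were not worked out. With the weaker limit that the interval excludes equal levels, 78 members (65.5%) were lower and 13 (10.9%) higher. The same limit was met by 11.2% lower and 12.4% higher of all unigenes, and by 35.7% lower and 25.1% higher of the abundant ones. By level, the median ratio was -0.32, -0.38, -0.54 and -0.56 for members from 10 to 20 FPKM up to 100 FPKM or more, against -0.03, -0.08, -0.10 and -0.16 for other unigenes of those classes. No test of these differences between sets was made.

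The lowest ratio was that of c103996.graph_c0. It had 201.2, 6.92, 6.72 and 51.4 FPKM, a log2 ratio of frozen-only to control of -2.13 (95% interval -2.22 to -2.04). For c114554.graph_c0 the levels were 45.4, 1.30, 2.36 and 11.7 FPKM, a log2 ratio of -2.12 (-2.33 to -1.92). That for c100322.graph_c0 was -1.62 (-1.67 to -1.57). In these members the frozen-only level lay between the control and the acclimated levels. The other members called lower were c98552.graph_c1 (-1.05, interval -1.10 to -1.01), c90493.graph_c0 (-1.34), c42777.graph_c0 (-1.26), c40936.graph_c0 (-1.29) and c104160.graph_c0 (-1.59). With total counts the calls of c98552.graph_c1, c42777.graph_c0 and c40936.graph_c0 were lost.

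The 1 member called higher was c105509.graph_c0. It stood at 17.5, 2.61, 0.726 and 50.1 FPKM, a log2 ratio of frozen-only to control of 1.35 (1.20 to 1.51). It was thus at its highest in the frozen library of one state and at its lowest in that of the other. With total counts c87785.graph_c0 (1.13) and c58923.graph_c0 (1.15) were called higher as well.

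That members were low in the acclimated-frozen library is fixed by the rule, which left out the 108 unigenes named above that were not; their median log2 ratio to the acclimated library was 1.51. Among members, acclimated-frozen against acclimated, the median log2 ratio was 0.03 (quartiles -0.36 and 0.55), with 63 members above 0 and 56 below, and with total counts it was -0.04. Over all 77713 unigenes compared it was -0.04 (-0.09 over the 47737 with over 3 counts in a library and zeros set to 3 counts), and over the other abundant unigenes it was -0.09. Called higher were 4 members (3.36%) and called lower 1 (0.840%), beside shares of 3.46% and 0.926% among all unigenes compared and of 3.88% and 1.12% among the abundant ones. An interval excluding equal levels was found for 27 members higher and 21 lower (22.7% and 17.6%, against 11.4% and 12.4% of all unigenes and 22.5% and 36.5% of the abundant ones). For the other 71 members it held equal levels. Nothing is read from these counts, since the rule used both values. Precision was lower here than for frozen-only against control, with a median interval width from end to end of 1.07 log2 units against 0.37.

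The 4 members called higher all remained under both unacclimated levels, as the rule requires. Unigene c110872.graph_c0 had 105.3, 4.38, 18.8 and 107.5 FPKM (log2 ratio of acclimated-frozen to acclimated 2.17, interval 1.78 to 2.58). Unigene c100758.graph_c0 had 18.7, 0.660, 2.46 and 13.8 FPKM (1.94, interval 1.19 to 2.82). Unigene c97252.graph_c0 had 0 counts in the acclimated and 14 counts in the acclimated-frozen library, a 5.31-fold ratio with 3 counts set for the acclimated library, its 95% interval began at 1.92 on the log2 scale, and its unacclimated levels were 16.5 and 19.1 FPKM. The last was c105546.graph_c0, with 22.6, 1.72, 4.71 and 39.2 FPKM (1.52, interval 1.09 to 1.98). The 1 member called lower was c94405.graph_c0, with 114.0, 19.5, 6.75 and 137.5 FPKM (-1.46, interval -1.82 to -1.12). With total counts c105509.graph_c0 was called lower too (-1.81).

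Over the members the freezing ratios of both states were close to uncorrelated, but the rule used the values behind both ratios. The log2 ratios of both states share no library, and over the 119 members Pearson's r was -0.01 and Spearman's rho -0.05, against 0.43 and 0.26 over the other 10254 abundant unigenes. These are descriptions across unigenes, which are not independent replicates. The rule also cut off low ratios of frozen-only to control. The members' log2 ratios without acclimation ran from -2.13 to 1.35, against -5.38 to 6.84 over the other abundant unigenes. The gap in r and rho between the sets thus cannot show whether the members' freezing responses are less related than those of other unigenes. Pearson's r includes c97252.graph_c0 at 5.04 after acclimation, a ratio that rests on the prior count because its acclimated count was 0. The members' ratios after acclimation rest on few counts (medians of 61 and 57 counts in the acclimated libraries against 556 and 480 in the others), and the part of counting error and of the choice of members in the low value was not tested. By sign under TMM scaling, 55 members were lower with freezing alone and higher with freezing after acclimation, and 43 were lower in both. Another 13 were higher and then lower, and 8 were higher in both. Of the other 10254 abundant unigenes, 5859 lay below 0 without acclimation and 6198 after it. Their joint split by sign was not worked out, so nothing is read from the members' split.

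The difference between the freezing responses, after acclimation minus without it, had a median of 0.49 over the members, -0.12 over all 93837 unigenes and -0.01 over the other abundant ones. The members' median was 0.26 with total counts, and median-of-ratios factors gave 0.59; the rule used all 4 values behind it. Its 95% counting interval lay beyond 2-fold upward for 11 members (9.24%), against 1.04% of all unigenes and 3.34% of the abundant ones, and downward for 2 (1.68%), against 1.39% and 2.11%. Total counts gave 7 and 2, for which the shares of all unigenes were not worked out. Of the 11, 4 had been called lower by freezing without acclimation, 2 had been called higher by freezing after it, and 5 had neither call. Under the mirror rule 5 unigenes had a response called higher after acclimation and 29 a lower one, of 214. With 1 library per treatment none of these differences has a test.

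The largest called upward difference was that of c114554.graph_c0, at 3.04 (95% interval 2.34 to 3.74), from a ratio of -2.12 without acclimation and one of 0.92 after it. That of c100758.graph_c0 was 2.55 (1.78 to 3.32), and it was 2.30 for c110872.graph_c0 and 2.16 for c103996.graph_c0. The downward ones were c105509.graph_c0 at -3.09 (-3.87 to -2.32) and c94405.graph_c0 at -1.56 (-1.92 to -1.21). Both freezing intervals excluded equal levels on opposite sides under TMM, total-count and median-of-ratios scaling in 17 members. Of these, 15 (12.6%) were lower with freezing alone and higher with freezing after acclimation, as were 2.97% of the abundant unigenes and 0.504% of all, and 2 (1.68%) were the other way round, as were 5.24% and 1.28%. Since the rule used all 4 values behind these shares, they describe the members and show no more.

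**Figure D4:**
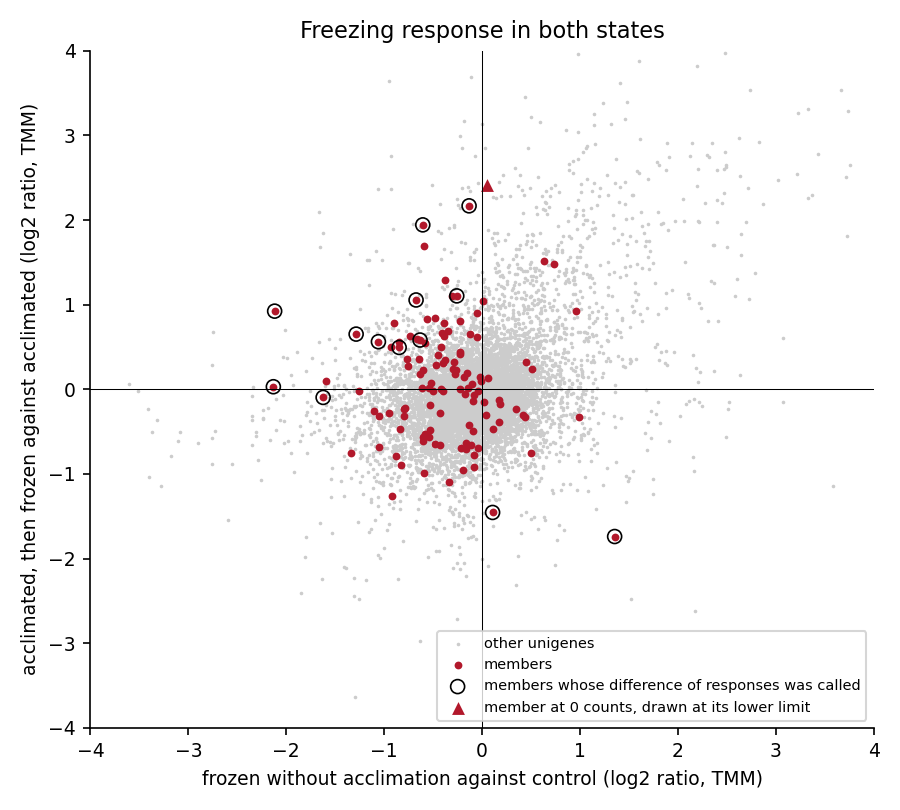
Log2 ratio of frozen to control without acclimation (horizontal) and of acclimated-frozen to acclimated (vertical), TMM scaling, for the 119 members (red) and the other unigenes of at least 10 FPKM in both unacclimated libraries (grey; 30 of the 10254 lie beyond the axes). Circles mark the 13 members whose difference of responses was called, 11 of them upward; 98 of the 119 members lie left of 0, while vertically they spread to both sides of it.

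The one fit that leaves a degree of freedom among the libraries is an additive model of acclimation and freezing, and it called no member changed by freezing over both states. That degree of freedom is the difference between the freezing responses of both states, which the fit takes as spread. The rule used all 4 values and cut off low ratios of frozen-only to control. The absence of calls thus does not show that freezing left the members unchanged. The test was edgeR's quasi-likelihood one over 48004 unigenes, with 1 residual degree of freedom and p adjusted by Benjamini-Hochberg, and 0 of 119 members passed an adjusted p of 0.05, where 2.89% of all unigenes were called higher and 0.331% lower. At an unadjusted p under 0.05 the fit gave 3 members higher and 12 lower, against 8.34% and 4.34% of all unigenes. The lowest adjusted p in edgeR among members was 0.0742, for c87785.graph_c0, with a log2 change of 0.95, and c90493.graph_c0 followed at 0.0768 with -1.04. DESeq2 called 1293 unigenes in all, 0 of them members. It had 8 members at an unadjusted p under 0.05, for which the share of all unigenes was not worked out. The count of 0 was not stable to the filter: with no filter on low counts edgeR called 4 members higher and 3 lower (2.51% and 0.632% of all unigenes).

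The median member was somewhat shorter than the median of other abundant unigenes. The length implied by count and FPKM had a median of 1115 bases (quartiles 681 and 1607 bases, range 203 to 2498 bases), against 1283 bases (866 and 1854) in the other abundant unigenes and 407 bases in the whole table. Of the members 11 (9.24%) were under 500 bases, as were 5.08% of the others. The shortest, c40936.graph_c0 and c42777.graph_c0, measured 203 and 239 bases. This difference was not tested.

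Unigenes whose identifiers share a component number with a member were compared over the same libraries. Such partners existed for 15 members beside the pair named above, 20 unigenes in all, of which 12 had at least 20 counts over the 4 libraries. In 10 of the 12 the summed unacclimated FPKM exceeded the summed acclimated FPKM, as in 58.6% of the 37523 unigenes of that depth. It did so at least 2 times in 7 of the 12, as in 22.3% of those unigenes, and at least 4 times in 5, as in 6.47%. The median ratio was 2.26, against 1.15 in all. Close partners in pattern were c114401.graph_c1 (5.51, 0.849, 1.15 and 7.11 FPKM) beside the member c114401.graph_c0 (12.7, 1.43, 2.20 and 11.1 FPKM), and c94191.graph_c1 (8.08, 1.01, 1.80 and 6.35 FPKM) beside c94191.graph_c0 (13.2, 1.98, 1.85 and 11.2 FPKM).

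Others departed from their member. Unigene c113500.graph_c0 was level across the libraries, at 62.6, 56.2, 66.5 and 47.7 FPKM, beside the member c113500.graph_c1 at 69.2, 6.97, 5.44 and 40.0 FPKM. Unigene c112015.graph_c2 was highest in the acclimated-frozen library, at 15.0, 15.0, 62.6 and 25.8 FPKM, beside the member c112015.graph_c0 at 44.9, 2.50, 3.52 and 27.8 FPKM. These partners were named after their values were seen. Reads may be shared between similar unigenes of a component, and the sources used here do not give how they were divided.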

How the data were processed

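RNA-seq was made from leaves under 4 treatments, 1 library each, with leaves of 3 replicates mixed per the labels' protocols. The count and the FPKM of each unigene were deposited by the authors, per the file headers. FPKM equals the count over the library's summed counts and a length common to all libraries (largest relative difference 1.79e-08), so it is scaled by total counts. Bowtie 0.12.2, Cufflinks and the mouse build mm8 are named, with no role, in the submitters' processing notes. The assembler and the counting rule are not given in the sources used here.

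Members and lists were chosen with earlier results of these data known. Ratios between libraries used TMM scaling (edgeR 4.0.16, run in R 4.3.3). Its factors were 0.993 for the control, 0.976 and 0.928 for the acclimated and acclimated-frozen libraries and 1.11 for the frozen-only library. Ratios had a prior count of 0.5 and exact (Clopper-Pearson) 95% binomial intervals (scipy 1.17.1). Calls needed an interval wholly beyond 2-fold. Differences of responses used the counting variance of 4 log2 counts. Unigenes with a count in either library were compared. The additive model of acclimation and freezing was fitted to all unigenes with at least 10 counts (edgeR; DESeq2 1.42.0 as an alternative). The 2-fold interval rule, the rule for differences of responses and the edgeR fit were tried on simulated counts, and the rule of the set on made-up values. The other limits and fits were not. Members were named for highest mean unacclimated FPKM (6), largest fold (6), most extreme called freezing ratios (up to 3 each way) and differences (2 each way), closeness to a limit and shared component numbers; other names follow from short counts. Intervals and limits cover counting error only, and p-values measure only the spread between these 4 libraries.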

Additional observations from a re-analysis of the deposited data

Results flagged for a closer look

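In 4 of the named members freezing went with opposite directions in the acclimated and the unacclimated state, with both counting intervals clear of equal levels under 3 scalings. The difference was not tested, since each treatment has 1 library. The difference (log2, response after acclimation minus response without it) was 1.67 for c95368.graph_c0, 3.04 for c114554.graph_c0, 2.55 for c100758.graph_c0 and -3.09 for c105509.graph_c0. The first 3 were lower with freezing alone and higher with freezing after acclimation, and the last was the reverse. These patterns were met by 0.504% and 1.28% of all unigenes. All but c95368.graph_c0 had been named for extreme freezing ratios and differences, and the rule used all 4 values, so their presence among named members shows no more. In the acclimated libraries these levels rested on 17 and 37 counts for c95368.graph_c0, 28 and 47 for c114554.graph_c0, 18 and 62 for c100758.graph_c0 and 66 and 17 for c105509.graph_c0.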

How the results depend on the processing

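The size of the set moved with each limit: 201 unigenes at 5 FPKM, 67 at 20 FPKM, 261 at 3 times and 18 at 8 times, and 69 with FPKM rescaled by median-of-ratios factors. Applied without 1 library in turn, chosen after seeing the data, the rule gave 227 to 359 unigenes, since fewer conditions are asked. For freezing without acclimation the members' median of -0.39 moved to -0.22 with total counts and to -0.21 on the log2(FPKM + 1) scale, which also gave 3 higher calls. Total counts gave 3 higher and 5 lower calls, and an interval excluding equal levels gave 13 and 78. For freezing after acclimation lower calls were 2 with total counts and 3 with log2(FPKM + 1), and an interval excluding equal levels gave 27 higher and 21 lower. Responses higher after acclimation numbered 7 with total counts, and 57, with 13 lower, by intervals that exclude equal responses. For intervals excluding equal levels, shares of all unigenes are given above. At the other settings just named they were not worked out. The rule used the values, so nothing is read from any of these counts. The additive fit called 7 members with no filter on low counts; the cause was not tested. Median length was 1139 bases at 20 FPKM and 1098 bases at 8 times. Of 38 ratios of named members, 31 with total counts and 35 with median-of-ratios factors kept direction and call. No paired analysis was possible because each treatment has 1 library and the labels carry no replicate numbers. Depth limits the low side most: the fewest counts of a member were 0 in the acclimated and 6 in the acclimated-frozen library.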
